A study of Mus musculus with 12 samples.

Results

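The lysosome is the acidic compartment in which cells break down proteins, glycans, lipids and material taken up from outside. The 35 genes described here encode its hydrolases, its membrane proteins, the proton pump that acidifies it, and the transcription factors of the MiT family (Tfeb, Tfe3 and Mitf), which switch on many lysosomal genes through E-box motifs. In the nervous system, microglia and other phagocytes are rich in lysosomes, and loss of several of these enzymes causes storage diseases with neurodegeneration. The members were taken from a list of gene names matched to Ensembl mouse identifiers through GENCODE M21. The list was chosen with earlier results of these data known. All 35 were found among the 33906 identifiers, and all 35 were among the 18119 genes with enough reads to test.

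The data are poly(A) RNA sequencing of lumbar spinal cord from 12 mice, 3 in each group. Healthy wild types form group H, with libraries H1, H2 and H4. The remaining libraries come from mice modelling amyotrophic lateral sclerosis (ALS): P66, P67 and P74 were given phosphate-buffered saline (group P), and C79, C84 and C85 manganese-doped carbon dots (Mn@CDs, group C), which are titled as nanozymes with superoxide dismutase-like (SOD-like) activity. Libraries E75, E77 and E90 (group E) were taken as the edaravone group by elimination, because edaravone, a radical scavenger, is described there under the letter D. No source used here gives the transgene, strain, age, sex, dose or treatment time, and no wild-type mouse received either agent, so a treatment can be read within the model alone. Levels are FPKM (reads per kilobase of exon, scaled to a total for each library). Differences are on the log2(FPKM + 1) scale ± standard error, with n = 3 mice a group. A call is an adjusted p under 0.05 in limma, adjusted over all genes tested.

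The libraries held 16.8 to 19.8 M recovered reads. Replicates correlated at 0.966 to 0.993 across genes. As a check of the tissue, the summed level of 12 neuronal markers was 921 to 2212 FPKM and that of 8 oligodendrocyte markers 3198 to 6115 FPKM. In the comparison of P with H the summed level of 15 microglial markers was 139 to 196 FPKM in H and 491 to 1090 FPKM in P, and 14 of the 15 rose. That of 8 astrocyte markers was 1260 to 1356 FPKM in H and 2190 to 3319 in P, with 5 of 8 higher. Of the neuronal markers 7 of 12 fell, and skeletal muscle markers summed to 2519 FPKM in H1 against 27.8 FPKM in H4. Their part in the results below was not tested. In bulk tissue, more cells of a type and more RNA per cell cannot be told apart.

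In the saline-treated model, lysosomal enzyme and membrane genes were higher than in healthy cord, while the proton pump was not higher as a whole. Of the 35 members 19 rose (54.3%, against 12.2% of all tested genes called higher) and none fell (0 members, against 3.26% of all tested genes). At an unadjusted p under 0.05 there were 26 members, against 32.7% of all tested genes, and limma-voom, run on reads recovered from the FPKM, called 18 higher and 1 lower. The median difference over the members was 0.51, against 0.07 over all genes tested. In 25 members the P and H libraries did not overlap and P was higher, against 26.4% of all genes, and no member was separated in the lower direction, against 8.88% of genes. By role, 6 of 8 membrane proteins, 5 of 8 glycosidases, 2 of 4 sphingolipid enzymes and cofactors, 3 of 3 peptide and thioester hydrolases, 1 of 3 transcription factors and 2 of 9 pump genes rose. The median was 0.94 for the glycosidases and -0.06 for the pump genes. The counts of members that rose or were separated include Atp6v0d2. It had at most 1 recovered read in each healthy library, so its direction against H was set in advance.

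**Figure D1:**
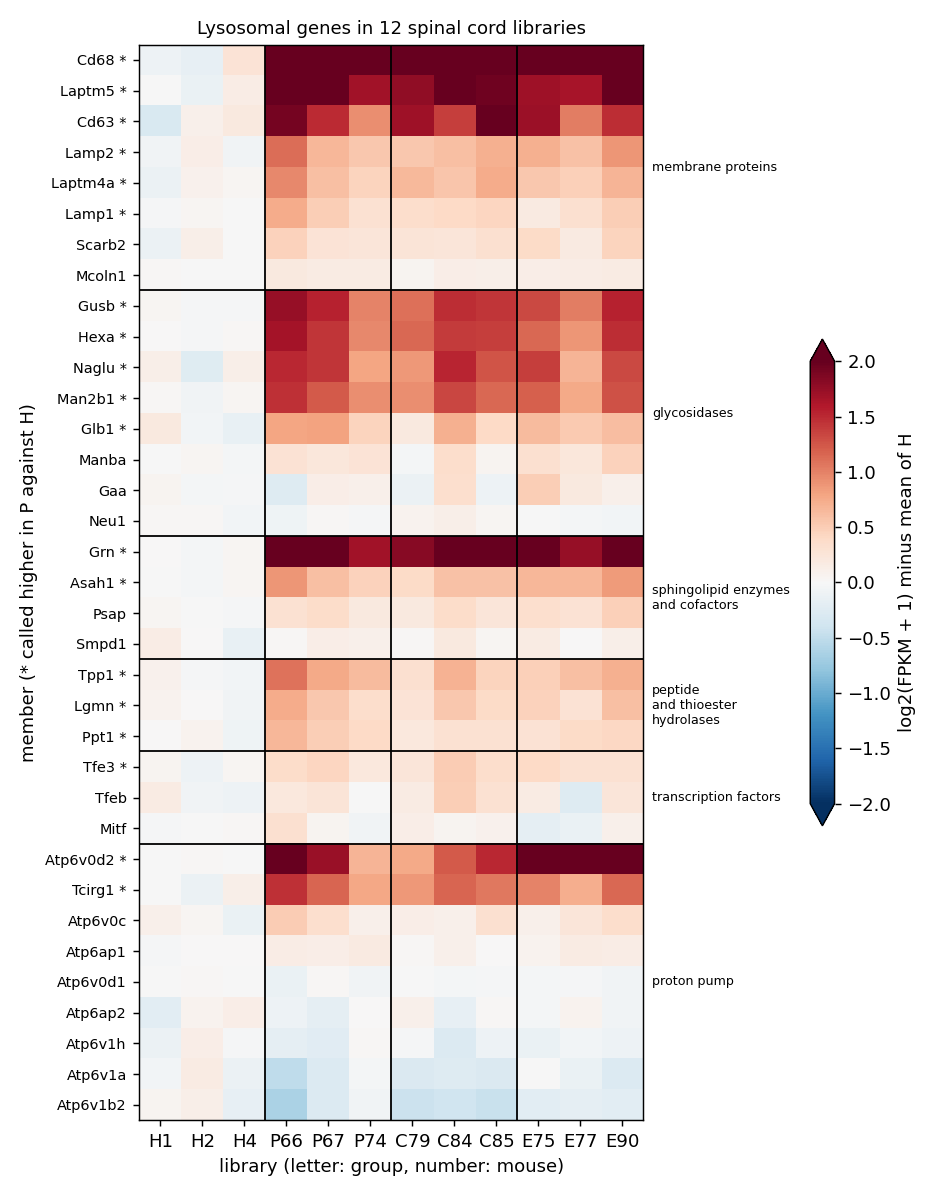
Each of the 35 members (rows, by role) in each of the 12 libraries (columns), as log2(FPKM + 1) minus the mean of the 3 healthy libraries, with the colour scale ending at 2 in either direction. The 19 members marked with a star rose in P against H, and within the proton pump only Atp6v0d2 and Tcirg1 carry a star.

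**Figure D2:**
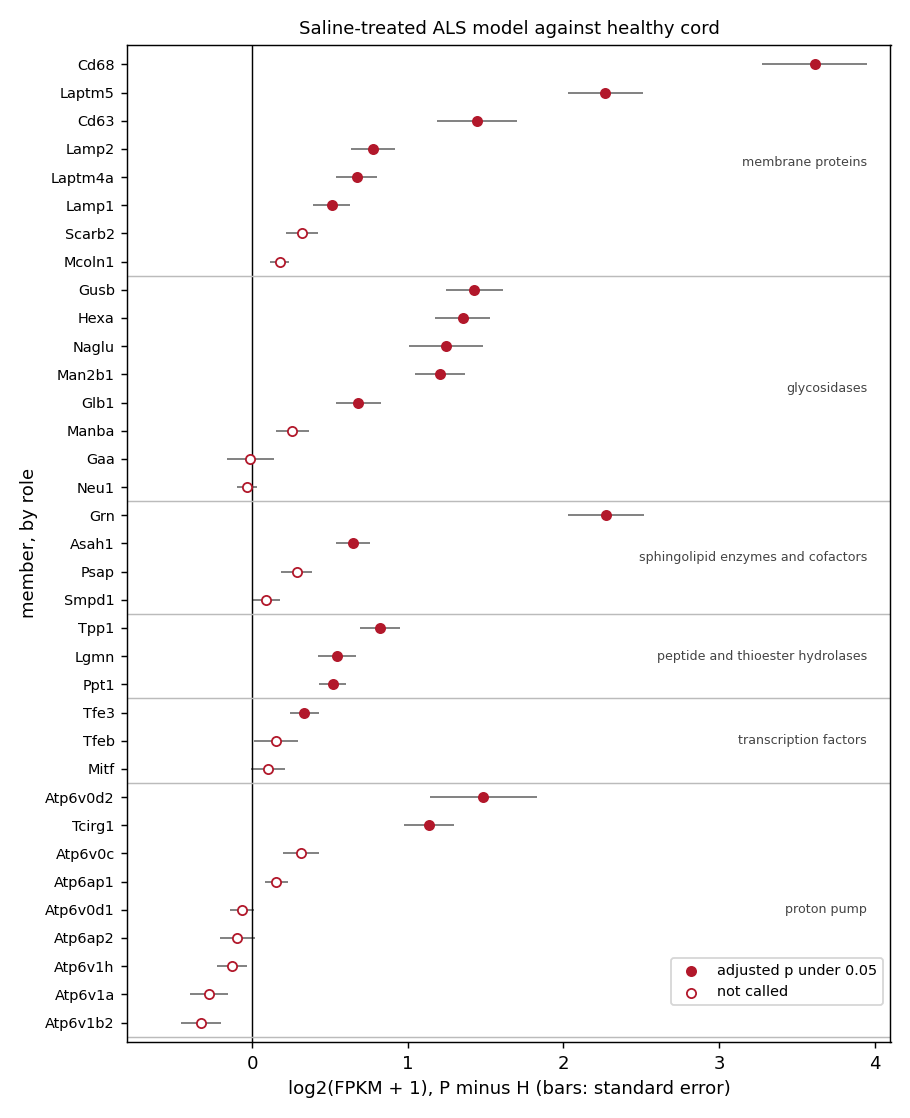
Difference between P and H for each member on the log2(FPKM + 1) scale, with standard errors. Filled points passed at an adjusted p under 0.05. Cd68 lies farthest right at 3.61 and Atp6v1b2 farthest left at -0.33.

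Among the membrane proteins, Cd68 changed most. Cd68, a heavily glycosylated protein of phagocyte lysosomes (ENSMUSG00000018774, GRCm38 chromosome 11, 69664213 to 69666153), had 3.65, 3.43 and 5.02 FPKM in H1, H2 and H4, and 96.4, 65.6 and 34.0 FPKM in P66, P67 and P74. Even the lowest saline library lay far above every healthy one, and the spread within P was wide. The difference was 3.61 ± 0.34 (adjusted p = 0.000237). Laptm5, a lysosomal membrane protein of blood-derived and microglial cells, had 7.87, 7.17 and 8.89 FPKM in the healthy libraries and 58.5, 46.2 and 27.5 FPKM in the saline ones. Cd63, a tetraspanin of late endosomes, had 16.1, 21.7 and 23.0 FPKM in H and 78.7, 57.9 and 39.0 FPKM in P. Neither gene overlapped between the groups, and they rose by 2.27 ± 0.24 (adjusted p = 0.000355) and 1.44 ± 0.26 (adjusted p = 0.0048). Cd63 has a transcribed pseudogene, Cd63-ps, whose listed level was 2.86 to 5.55 FPKM in H and 8.20 to 23.2 FPKM in P, so the division of reads between the copies is uncertain.

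The abundant coat proteins of the lysosomal membrane changed less. Lamp1 went from 156 ± 3.80 FPKM (SD, n = 3) in H to 225 ± 35.3 in P, a difference of 0.51 ± 0.12 (adjusted p = 0.0177), and Lamp2, which also serves chaperone-mediated autophagy, from 16.8 ± 1.52 to 29.8 ± 6.85 FPKM (0.78 ± 0.14). Laptm4a, a small transmembrane protein of late endosomes, rose by 0.67 ± 0.13. The Lamp1 call was lost without H2, without P66, without P67 and with only the P and H libraries in the fit. Scarb2 (LIMP-2), the receptor that carries glucocerebrosidase to the lysosome, missed the threshold (0.32 ± 0.10, adjusted p = 0.0507), as did the calcium channel gene Mcoln1 (0.18 ± 0.06, adjusted p = 0.0679), although in both genes every P library lay above every H library.

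The glycosidases divided into 5 genes that rose, by 0.68 to 1.43 on the log2 scale, and 3 that did not pass. Gusb, the beta-glucuronidase, had 4.13, 3.91 and 3.90 FPKM in H1, H2 and H4 and 15.7, 13.5 and 8.90 FPKM in P66, P67 and P74. Hexa, the alpha subunit of beta-hexosaminidase that is lost in Tay-Sachs disease (ENSMUSG00000025232, chromosome 9, 59539540 to 59565109), had 22.3, 22.0 and 22.5 FPKM in H and 73.0, 61.6 and 44.5 FPKM in P. Naglu, an enzyme of heparan sulfate breakdown, had 3.25, 2.32 and 3.22 FPKM in H and 10.1, 9.56 and 5.75 FPKM in P. In these 3 genes all saline libraries lay above the healthy ones, which lay close together for Gusb and Hexa, while H2 was the lowest for Naglu. They rose by 1.43 ± 0.18, 1.35 ± 0.18 and 1.25 ± 0.24 (adjusted p = 0.000935, 0.000978 and 0.0068). The alpha-mannosidase gene Man2b1 rose by 1.21 ± 0.16 and the beta-galactosidase gene Glb1 by 0.68 ± 0.14, the latter with its call lost without P66.

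Gaa, the acid alpha-glucosidase that degrades glycogen, averaged 74.1 ± 2.58 FPKM in H and 73.95 ± 10.8 in P. Neu1, the lysosomal sialidase, averaged 14.96 ± 0.508 and 14.6 ± 0.562 FPKM. Their differences were -0.01 ± 0.15 (95% interval -0.34 to 0.32) and -0.03 ± 0.07 (-0.18 to 0.11). The beta-mannosidase gene Manba differed by 0.26 ± 0.11 (adjusted p = 0.119), with no overlap between P and H.

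The 4 genes of sphingolipid handling also differed among themselves. Grn encodes progranulin, a secreted and lysosomal glycoprotein whose loss causes frontotemporal dementia or, when complete, a storage disease (ENSMUSG00000034708, chromosome 11, 102430315 to 102437048). It had 14.3, 13.8 and 14.7 FPKM in H1, H2 and H4 and 107, 75.2 and 48.1 FPKM in P66, P67 and P74. The acid ceramidase gene Asah1 had 21.4, 21.05 and 22.2 FPKM in H and 40.7, 33.2 and 29.98 FPKM in P. Both were separated between the groups and rose by 2.27 ± 0.24 (adjusted p = 0.000369) and 0.65 ± 0.11 (adjusted p = 0.004).

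Psap encodes the precursor of the saposins, small activators of sphingolipid hydrolases, and was the most abundant member per length in every library. Its level was 653, 637 and 626 FPKM in the healthy libraries and 788, 820 and 732 FPKM in the saline ones. The groups did not overlap, but the difference missed the threshold (0.29 ± 0.10, adjusted p = 0.0741). Smpd1, the acid sphingomyelinase, had 28.3, 25.5 and 22.9 FPKM in H and 25.99, 28.0 and 27.5 FPKM in P. These overlapped (0.09 ± 0.09, adjusted p = 0.529).

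All 3 peptide and thioester hydrolases rose. Tpp1, a tripeptidyl peptidase, had 20.8, 19.3 and 18.8 FPKM in H and 42.7, 33.8 and 30.8 FPKM in P (0.82 ± 0.13, adjusted p = 0.00242). Ppt1, which removes palmitate from proteins, had 32.6, 33.8 and 30.5 FPKM in H and 51.7, 45.8 and 42.9 FPKM in P (0.52 ± 0.09, adjusted p = 0.00368). Loss of either enzyme causes a childhood neuronal ceroid lipofuscinosis. Lgmn, an asparagine-specific endopeptidase that matures cathepsins, had 94.7, 90.4 and 86.2 FPKM in H and 152, 132 and 116 FPKM in P (0.55 ± 0.12, adjusted p = 0.014). P66 was the highest and P74 the lowest saline library for each of the 3 genes, and no saline library reached into the healthy range. The Lgmn call was lost without H2 and without P66.

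Of the transcription factors, Tfe3 alone passed, and by a small margin. Tfe3 had 3.94, 3.42 and 3.87 FPKM in H and 5.12, 5.40 and 4.46 FPKM in P (0.34 ± 0.09, adjusted p = 0.0341), a call lost in 10 of 18 alternative settings. Tfeb had 4.05, 3.29 and 3.18 FPKM in H and 4.20, 4.36 and 3.49 FPKM in P, with overlap between the groups (0.16 ± 0.14, adjusted p = 0.479). Mitf had 3.18, 3.22 and 3.30 FPKM in H and 4.29, 3.41 and 3.05 FPKM in P, and P74 lay below every healthy library (0.10 ± 0.11, adjusted p = 0.534). These factors are controlled largely by phosphorylation and movement into the nucleus, which RNA levels do not report.

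E-box motifs were counted in the promoters of the members. RefSeq promoter sequences (250 bases before to 50 after each gene start, GRCm38.p6) were matched by symbol for 31 of the 35 members, and no sequence was used for Asah1, Atp6v0d2, Atp6v1b2 and Atp6v1h. The core CACGTG, which reads the same on both strands, was found in 8 of the 31 genes (25.8%), against 8.09% of all 27025 genes in the table. Not every stretch with the core is printed. The core of Lgmn, which rose (at -49 from the start), and a further Mcoln1 core (at -71) are left out. So are the cores of Gaa (at -140), Atp6v0d1 (at -3) and Atp6v1a (at -131), which did not pass. The 4 stretches below hold the core near the start of a member that rose (Lamp1, Glb1 and Naglu) or missed the threshold (Mcoln1). They read 5′ to 3′ on the plus strand, which is the coding strand of all 4 genes, with the core in capitals. Positions follow RefSeq starts, and in GENCODE M21 the Mcoln1 stretch lies within the gene and the Naglu stretch partly so.
Lamp1, chr8:13159088-13159160: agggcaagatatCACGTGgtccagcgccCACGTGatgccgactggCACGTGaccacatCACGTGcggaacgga
Glb1, chr9:114401018-114401047: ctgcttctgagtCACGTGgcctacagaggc
Naglu, chr11:101070009-101070038: caaccttcaggtCACGTGgcccgaggtcgg
Mcoln1, chr8:3500462-3500491: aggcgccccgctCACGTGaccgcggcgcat

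The Lamp1 stretch held 4 copies of the core within its 73 bases, directly before the gene start. Of the 8 genes with the core, 4 rose in P (Lamp1, Glb1, Naglu and Lgmn) and 4 did not pass (Mcoln1, Gaa, Atp6v0d1 and Atp6v1a). The core was not seen in these windows for the members with the largest differences, Cd68, Grn and Laptm5, and nothing about the factors is drawn from that. Longer or related letters were also searched on both strands. The 8-letter form TCACGTGA, which contains the core, was in 3 of the 31 genes (9.68%, against 1.12% of all genes), namely Mcoln1, Atp6v0d1 and Atp6v1a. The related TCATGTGA was in 4 (12.9%, against 1.15%), namely Grn, Ppt1, Tpp1 and Atp6v0c, and GAGGAAGT, a form bound by the myeloid factor PU.1, in 1 (3.23%, against 3.69%), namely Gusb. A match is a description of letters and not a bound site.

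The proton pump (V-ATPase) couples a cytosolic ATP-splitting V1 sector to a membrane V0 sector, and neurons use the same machine to fill synaptic vesicles. Its V1 members had lower means in P than in H and did not pass. Atp6v1b2, a regulatory subunit of V1, had 129, 135 and 111 FPKM in H1, H2 and H4 and 79.99, 103 and 119 FPKM in P66, P67 and P74. Atp6v1a, the catalytic subunit, averaged 75.4 ± 8.02 FPKM in H and 62.4 ± 10.2 in P. Atp6v1h averaged 20.1 ± 1.81 and 18.3 ± 1.91 FPKM. All 3 overlapped between the groups, with differences of -0.33 ± 0.13 (adjusted p = 0.105), -0.28 ± 0.12 (adjusted p = 0.143) and -0.13 ± 0.10 (adjusted p = 0.388). Atp6v1a and Atp6v1b2 were called lower without P74, and Atp6v1b2 also with limma-voom. The summed neuronal marker level was 2060, 2212 and 1665 FPKM in H1, H2 and H4 and 921, 1174 and 1475 FPKM in P66, P67 and P74. Within H and within P this was the order of Atp6v1b2, but not within C or E. The sums were 1372, 1231 and 1282 FPKM in C79, C84 and C85, with Atp6v1b2 at 92.2, 94.5 and 91.6 FPKM. In E75, E77 and E90 they were 1217, 1272 and 1283 FPKM, with Atp6v1b2 at 107.2, 109.6 and 107.4 FPKM. The part of neuronal RNA was not tested.

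The V0 and accessory members of the ubiquitous pump also stayed under the threshold. Atp6v0d1, the d subunit used in most cells, had 101 ± 1.55 FPKM in H and 96.4 ± 5.26 in P (-0.06 ± 0.08). The accessory genes Atp6ap1 and Atp6ap2 differed by 0.16 ± 0.07 and -0.09 ± 0.11. For Atp6ap1 every P library lay above every H library, while Atp6ap2 and Atp6v0d1 overlapped. Atp6v0c encodes the proton-carrying ring of the pump but was listed at 3.14 to 5.46 FPKM in H and P, far under Atp6v0d1 per length (0.31 ± 0.12, adjusted p = 0.0908). Its lowest P library (3.88 FPKM in P74) lay just above its highest H library (3.86 FPKM in H1). Atp6v0c was called higher without P74 (adjusted p = 0.0304 in limma). It has 2 named processed pseudogenes, and Atp6v0c-ps2 was listed at 5.99 to 11.6 FPKM over the 12 libraries, so the division of its reads between copies is uncertain.

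2 pump genes of phagocytes and osteoclasts rose against this background. Tcirg1 encodes the a3 subunit of V0 and had 6.07, 5.56 and 6.72 FPKM in H and 18.6, 14.9 and 11.2 FPKM in P. The groups were separate (1.14 ± 0.16, adjusted p = 0.00164). Atp6v0d2 encodes the d2 subunit, the alternative to d1 (ENSMUSG00000028238, chromosome 4, 19876841 to 19922605). It was listed at 0, 0.0201 and 0 FPKM in H1, H2 and H4, and had 3.18, 2.33 and 0.606 FPKM in P66, P67 and P74. It rested on 28 to 149 recovered reads in each saline library, against at most 1 in each healthy library, so it entered the test through the ALS model groups. The fitted difference was 1.49 ± 0.34 (adjusted p = 0.0164), a call lost without H2, without P66 and without P67. Its direction against H was set by that entry, so the call is a description. No fold is given against H, since an exact 0 in these tables may be a failed estimate.

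**Figure D3:**
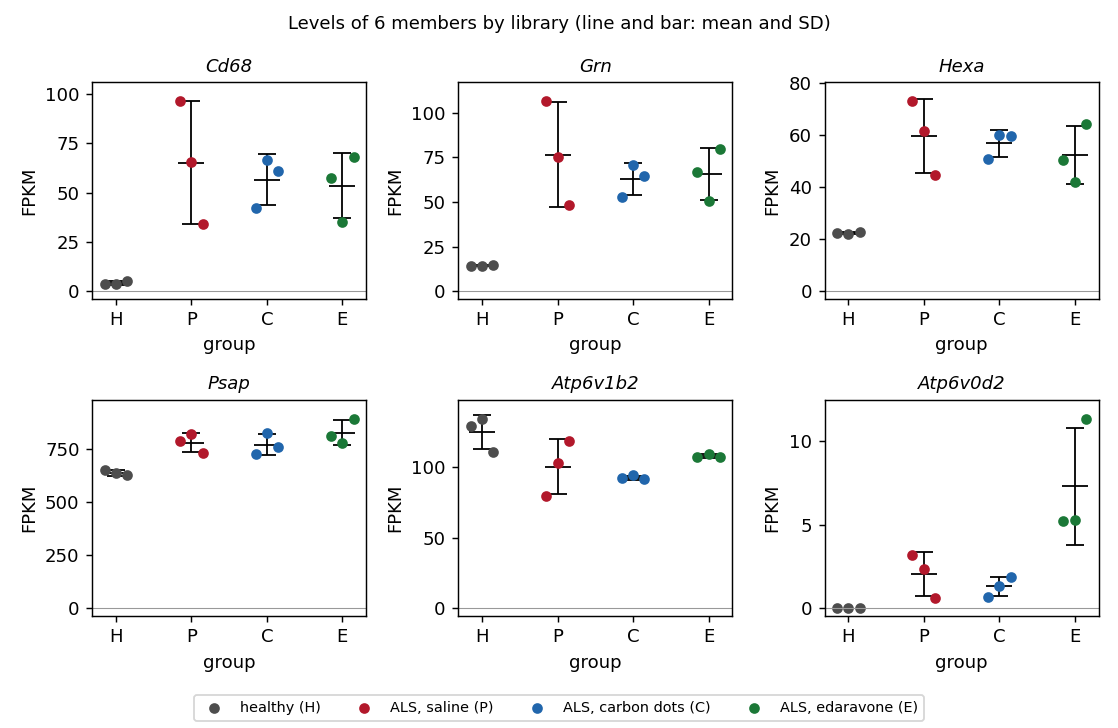
FPKM of 6 members in every library of the 4 groups (points), with mean and SD (no mean or SD is drawn for Atp6v0d2 in H). Cd68, Grn and Hexa lie above H in all 9 ALS model libraries, Atp6v1b2 lies lower in C than in any H library, and Atp6v0d2 is highest in the 3 E libraries.

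The saline libraries kept a common order over the members that rose. P66 was the highest of the 3 for 17 of the 19 members and P67 for the other 2, while P74 was the lowest for all 19. The median distance from the healthy mean over the 19 members was 1.46 in P66, 1.17 in P67 and 0.67 in P74. The summed microglial markers had the same order (1090, 844 and 491 FPKM), and so did the summed astrocyte markers (3319, 3038 and 2190 FPKM). The largest part of the astrocyte sum was Gfap (2112, 1917 and 1121 FPKM). Aldoc had the reverse order (465, 520 and 521 FPKM), and Slc1a2, Slc1a3 and Fgfr3 did not keep the order either. Among the 16 members that did not pass there was no common order, with P66 the highest in 5, P67 in 6 and P74 in 5.

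Lysosomal genes outside the list were counted in the same fit for context, to be read against the 12.2% of all tested genes called higher, the 3.26% called lower and the 32.7% at an unadjusted p under 0.05. Of 25 tested other hydrolases and activators 17 rose and 0 fell (median 0.42), and 20 had an unadjusted p under 0.05. They included the endolysosomal nuclease Pld4 (1.78 ± 0.22, adjusted p = 0.000724) and the acid DNase gene Dnase2a (0.99 ± 0.17). Of 11 cathepsins, the lysosomal proteases, 9 rose (median 1.65), with Ctsd (2.12 ± 0.24), Ctss (2.46 ± 0.28) and Ctsz (2.17 ± 0.26). Of 22 other membrane and transport genes 10 rose and 1 fell (median 0.28). Gpnmb, a glycoprotein of loaded phagocytes, differed by 3.85 ± 0.51. Its healthy mean was 0.302 FPKM, near the floor, and the difference ran from 3.46 to 5.82 over the settings. The cystine exporter Ctns differed by 0.54 ± 0.09 and the endolysosomal cation channel gene Tpcn2 by 0.61 ± 0.12. Lamp5, a neuronal relative of Lamp1, fell by 0.59 on the log2 scale. Of 11 tested other pump subunits 1 rose, Atp6v0a2 (0.43 ± 0.12), and 1 fell, Atp6v1f (-0.60 ± 0.17), with a median of -0.14, so the share that rose was near that of all genes. The calls of Lamp5, Atp6v0a2 and Atp6v1f were lost in 5, 9 and 6 of the 18 settings, among them without P66.

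The comparison of carbon dots with saline asks whether the treatment moved these genes within the model. No member passed: limma called 0 of 35 higher and 0 lower, against 0.00552% of all tested genes higher and 0.0% lower, and limma-voom also called 0. At an unadjusted p under 0.05 there were 2 members, against 9.95% of all genes. The median over the members was -0.08, against -0.02 over all genes, and ran from -0.1356 (without P74) to -0.0023 (without P66) when 1 library was left out. The lowest adjusted p belonged to Ppt1, which had 37.4, 40.2 and 40.2 FPKM in C79, C84 and C85 against 51.7, 45.8 and 42.9 FPKM in P66, P67 and P74. C lay below P in every library (-0.24 ± 0.09, 95% interval -0.43 to -0.055, adjusted p = 0.419). Tpp1 had 24.6, 32.2 and 27.0 FPKM in C and overlapped P (-0.34 ± 0.13, interval -0.62 to -0.06, adjusted p = 0.429). Mcoln1 and Atp6ap1 were the other members with every C library below every P library, against 8.77% of all genes, and Neu1 the 1 member with every C library above, against 8.33%. For the 19 members the intervals ran from -1.07 to 0.81 at their widest, and none reached the full return to the healthy level. Those 19 were chosen, and the full return computed, from the same P libraries, so this is a description.

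For edaravone against saline the result was of the same kind, with 1 member standing apart. Limma called 0 of 35 members higher and 0 lower, against 0.0% of all tested genes in each direction, and limma-voom called 0. 1 member had an unadjusted p under 0.05, against 4.91% of all genes. The median was -0.05, against 0.01 over all genes, and its sign changed with 1 library left out, from -0.1878 (without P74) to 0.0144 (without E77). That member was Atp6v0d2, with 5.24, 5.27 and 11.3 FPKM in E75, E77 and E90 against 3.18, 2.33 and 0.606 FPKM in P66, P67 and P74. The lowest E library lay above the highest P library. The difference was 1.48 ± 0.34 (95% interval 0.73 to 2.23, unadjusted p = 0.00111), and it did not pass over all genes (adjusted p = 0.287, from 0.21 to 0.746 over the settings). It was 1.15 without E90 and 1.07 without P74, the lowest value with 1 library left out. Mcoln1 was the 1 member with every E library below every P library, against 4.2% of all genes, and Atp6v0d2 the 1 member above, against 4.81%.

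Carbon dots and edaravone were also compared with each other. 0 members passed in limma, against 0.0497% of all tested genes higher and 0.121% lower in C, and 0 in limma-voom. At an unadjusted p under 0.05 there was 1 member, against 11.0% of all genes. That member was again Atp6v0d2, with 0.697, 1.36 and 1.87 FPKM in C79, C84 and C85, all below the E libraries. Neu1 was the 1 member with every C library above every E library, against 6.61% of all genes, and Mcoln1, Asah1, Atp6v1b2 and Atp6v0d2 the 4 below, against 10.3%. Atp6v0d2 differed by -1.80 ± 0.34 (interval -2.55 to -1.05, adjusted p = 0.07), and its call was gained without P74 (adjusted p = 0.0299). Its listed level therefore ran from at or near 0 in H, through 0.697 to 1.87 in C and 0.606 to 3.18 in P, which overlapped, to 5.24 to 11.3 FPKM in E. Since Atp6v0d2 is known from osteoclasts, 6 osteoclast markers were read beside it. Dcstamp, Ocstamp and Calcr were at or near 0 in all 12 libraries (at most 0.213 FPKM), Ctsk was 3.89 to 6.21 FPKM over all groups, and Acp5 was 0.378, 0.219 and 0.998 FPKM in E75, E77 and E90 and at most 0.2 elsewhere. Mmp9 was 2.76 to 5.02 FPKM in H and 1.38 to 2.19 FPKM in the 9 ALS model libraries. The summed border macrophage markers were 5.64 to 11.1 FPKM in E, with the highest value in E90. They were 2.54 to 6.0 FPKM in P and 4.07 to 6.93 FPKM in C. The markers in this sum differed among themselves. Ms4a7 was 1.19 to 2.84 FPKM in E, 0.515 to 1.13 in P and 0.28 to 0.563 in C. Cbr2 was 0.49 to 0.671 FPKM in E, 0.177 to 0.961 in P and 1.05 to 1.19 in C. The part of these cells was not tested.

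**Figure D4:**
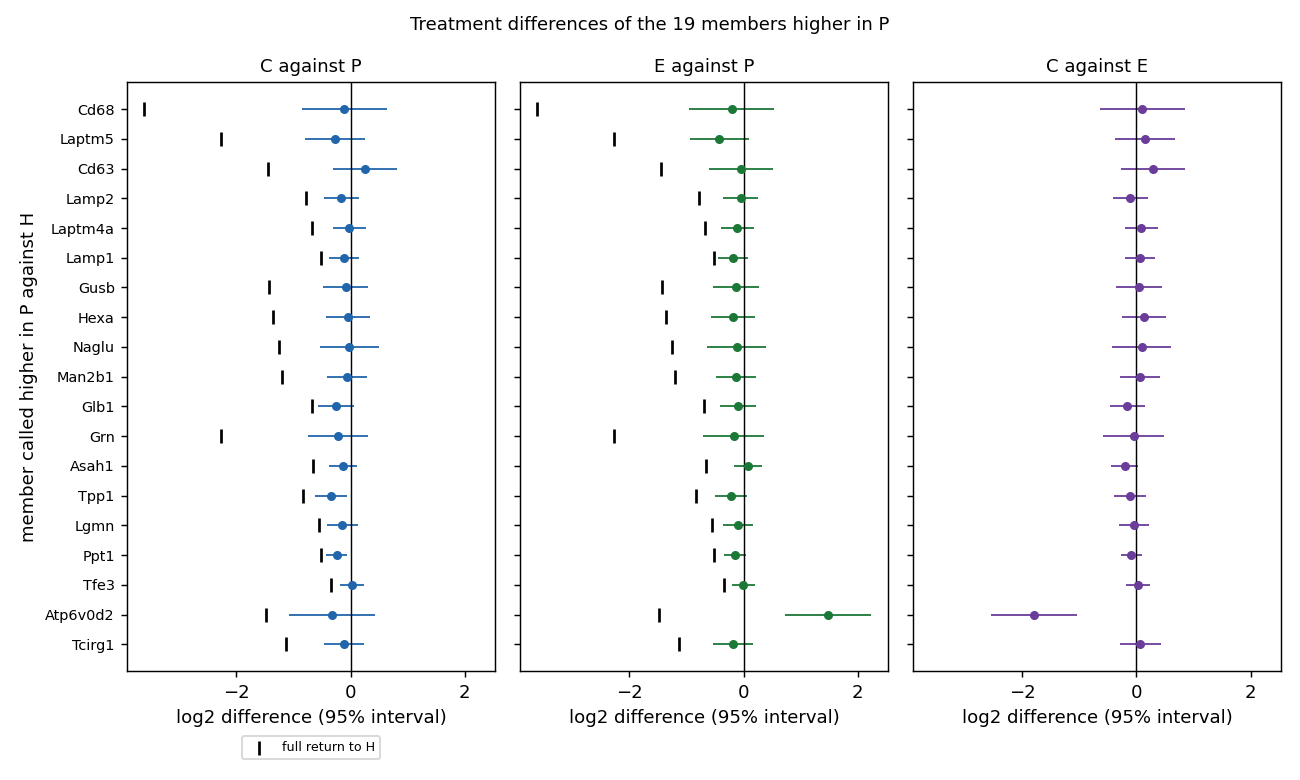
Differences between treatments for the 19 members that rose in P against H, on the log2(FPKM + 1) scale with 95% intervals. Black ticks mark the difference that would bring P back to the healthy mean. No interval in the panels of C and E against P reaches its tick, and Atp6v0d2 is the 1 member whose intervals lie wholly to one side of 0 in both comparisons that involve E.

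Both treated groups also had enzyme and membrane genes above healthy cord. These comparisons share the healthy libraries with the first one, so their calls are given side by side and not as separate support. In C against H 14 members rose and 0 fell, against 7.25% and 1.06% of all genes, with a median of 0.36, and 24 members lay wholly above H and 2 below, against 22.7% and 8.63%. In E against H 20 rose and 0 fell, against 11.0% and 2.15%, with a median of 0.36, and 26 lay wholly above and 2 below, against 24.9% and 7.93%. Of the 19 members that rose in P, 14 were called in C and 18 in E. The 19 and the 18 include Atp6v0d2, whose direction against H was set by how it entered the test. The counts of members wholly above H include it too. Lamp1 was called in neither, and Glb1, Ppt1, Lgmn and Atp6v0d2 were called in E and not in C. The C against E test of these 4 did not pass (adjusted p = 0.719, 0.741, 0.921 and 0.07). Cd68, the largest difference, was 3.51 ± 0.34 in C and 3.40 ± 0.34 in E, with 42.3, 66.7 and 61.0 FPKM in C79, C84 and C85 and 57.6, 35.3 and 68.0 FPKM in E75, E77 and E90. Grn was 2.05 ± 0.24 and 2.10 ± 0.24, and Hexa 1.31 ± 0.18 and 1.17 ± 0.18. Scarb2 and Psap were called in E against H alone among the 3 comparisons with healthy cord (adjusted p = 0.0483 and 0.0324), calls that were lost in 13 and 10 of 18 settings. The call of Tpp1 in C was lost in 10 settings, that of Tfe3 in 7 in C and 11 in E, and that of Lgmn in E in 8, while Atp6v0d2 was called in C in 6. In C79 and E77, the libraries with the least microglial marker RNA of their groups (678 and 468 FPKM), the median distance of the 19 members from the healthy mean was 0.75 and 0.68. The distance was 1.16 in C84 and 1.05 in C85, whose microglial sums were 850 and 884 FPKM. In E75 and E90 it was 0.99 and 1.15, with sums of 774 and 768 FPKM. In neither pair did the distance follow the order of the microglial sum, and the part of these cells was not tested. C79 was the lowest C library for 17 of the 19 members and E77 the lowest E library for 14. The 9 member calls left in C against H without C85 and the 12 left in E against H without E90 were the lowest over the settings.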

How the data were processed

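Per the submitters' processing notes, cutadapt, HISAT2 and featureCounts were used with the mouse build GRCm38. The sources used here give neither versions nor roles nor strandedness of counting. Reads of 6 members whose exons overlap another gene therefore cannot be divided (Lamp1, Hexa, Glb1, Grn, Ppt1 and Atp6v1h). The authors deposited 4 tables of FPKM values, 1 per group. The unit is not named and was settled from the values: times the GENCODE M21 exon length, 95.2 to 95.6% of the values worth at most 50 reads were whole within 0.02 of a read, with 1 step for each library, and gave the recovered reads. As the values are not counts, limma 3.58.1 (R 4.3.3) was run on log2(FPKM + 1), with 1 mean per group over 12 libraries (8 residual degrees of freedom), trended robust moderation and Benjamini-Hochberg adjustment over all tested genes, two-sided. A gene was tested with at least 10 recovered reads (scaled) in 3 libraries and 15 in all, which left 18119 of 33906. The script was tested on simulated data. Per-library values were given for the 3 members of largest difference in each large role, for all members of small roles and for members called between ALS model groups (none was); from other lists, the 3 lowest adjusted p-values, of which 1 gene is not reported here. Lamp5, and the members singled out in treatment comparisons, were named after their values were seen. The members and lists were chosen with earlier results of these data known. Each number in a library name marks a separate mouse. An exact permutation test of 3 against 3 cannot go below p = 0.1. Alternatives were a pseudocount of 0.1, no filter, an FPKM minimum of 0.5, median-ratio scaling, only the groups compared, each library left out, and limma-voom on recovered reads. The last was planned with TMM scaling, which was not run; library totals with median-ratio factors were used in its place, a choice made after seeing the data. The planned protein comparison of the d subunits was not made.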

Additional observations from a re-analysis of the deposited data

How the results depend on the processing

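In P against H, 14 of the 19 member calls held in all 18 alternative settings, and none of the 19 changed direction. Leaving out 1 library gave 14 (without P66) to 21 (without P74) members called higher and 0 to 2 called lower; limma-voom called 1 lower. In C against H the number called higher was 9 (without C85) to 18 (without P66) and the number called lower 0 to 1, and 1 member (Atp6v1b2) was called lower with median-ratio scaling, 1 with limma-voom and 1 with only the 2 groups compared. In E against H the number called higher was 12 (without E90) to 21 (without P66), and in C against E the number called lower was 0 to 1 (without P74). Small uncalled differences changed sign: with 1 library left out, Gaa in P against H ran from -0.0833 to 0.1131 and Mitf in P against H from -0.0035 to 0.1903. The causes were not tested. Over all genes, leaving out 1 library moved the all-gene calls in P against H from 2807 to between 933 (P66) and 3535 (P74), and 1444 were made with no filter and 1471 from the compared pair alone. The all-gene calls in C against H went from 1505 to between 567 (H2) and 1976 (P66), with 736 unfiltered. The all-gene calls in E against H went from 2392 to between 1159 (E90) and 2795 (P66), with 1469 unfiltered. The all-gene calls in C against E went from 31 to between 0 (C79) and 56 (E77), with 17 at a pseudocount of 0.1, 20 by limma-voom, 4 unfiltered and 4 from the pair alone. Over all settings C against P gave 0 to 5 and E against P 0 to 3. No paired analysis was possible because no mouse number is shared between groups. Depth limits Atp6v0d2, with at most 1 recovered read in a healthy library.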

Other observations

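Genes that deliver enzymes to the lysosome or sense nutrients on its surface were counted in P against H. There 12.2% of all tested genes were called higher, 3.26% were called lower and 32.7% had an unadjusted p under 0.05. Of 12 sorting genes, among them the mannose 6-phosphate receptor genes M6pr and Igf2r, limma called 0 and limma-voom 0, with 2 at an unadjusted p under 0.05 (median 0.11). Of 15 tested genes of nutrient sensing and MiT family control 2 rose and 1 fell (median -0.02), shares near or above those of all genes. In this list 7 had an unadjusted p under 0.05. Fnip2, a partner of folliculin, rose by 0.73 ± 0.14 (adjusted p = 0.0063) and Rragc, a Rag GTPase that recruits mTORC1, by 0.28 ± 0.08 (adjusted p = 0.0328), while Lamtor5, a subunit of the Ragulator complex, changed by -0.60 ± 0.15 (adjusted p = 0.0221). The Rragc and Lamtor5 calls were lost in 9 and 5 of 18 settings. Neither list had a call in C against P, E against P or C against E, by limma or limma-voom. At an unadjusted p under 0.05 there were 2 and 4 genes in C against P, against 9.95% of all genes. There were 0 and 0 in E against P (4.91% of all genes) and 2 and 4 in C against E (11.0%).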
